A study of Mus musculus with 18 samples.

Results

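Short-term hematopoietic stem cells (ST-HSC) of the fetal liver were compared with ST-HSC of the adult bone marrow, gene by gene. The comparison used the 6 ST-HSC arrays of the 18 in the study, 3 of fetal liver (FL) and 3 of bone marrow (BM), which were chosen by their titles, and 19505 genes. FL cells came from C57Bl/6J embryos at E13.5 and BM cells from C57Bl/6J adults aged 3 to 12 months. No treatment or allele is named in the titles, source names or stages. From both sources LSK cells (lineage-negative, Sca-1-positive and Kit-positive) were sorted and divided by Cd150 and Cd48, and the exact gates are not stated in the sources used here. The other 12 arrays hold long-term stem cells (LT-HSC) and multipotent progenitors (MPP), 3 arrays of each from each source. A description field instead names transplanted marrow with guide RNAs, sgEzh2 for FL ST-HSC a and sgLuc for the other 5 ST-HSC arrays. It goes against the titles and stages, which were used here. Whether arrays of one source stem from different animals is not stated, so that the p-values rest on a spread between arrays that may be technical.

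ST-HSC repopulate all blood lineages of a transplanted host but for a limited time, and stand between the long-lived LT-HSC and the MPP. In the fetal liver the stem cell pool expands by division, under a fetal program held up by RNA-binding proteins such as Lin28b and Igf2bp3. In the adult marrow most stem cells rest outside the cell cycle, and antigen presentation, interferon and myeloid genes are known to be more active there.

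Of 5 surface marker genes measured, Slamf1 alone passed the test. Kit, Slamf1 and Cd48 encode markers of the stated sort, and Cd34 and Flt3 do not. Values are log2 signals, and 3 values in a row are those of arrays a, b and c. Kit, which encodes a receptor of the sort, was at 13.22, 13.17 and 13.37 in FL and at 13.30, 13.16 and 13.25 in BM. Cd34 was at 12.06, 11.97 and 12.11 in FL and at 12.01, 11.96 and 12.00 in BM. Slamf1, which encodes Cd150, was at 7.43, 7.44 and 7.60 in FL and at 8.22, 8.10 and 7.80 in BM, a difference of -0.55 ± 0.18 (FL minus BM, log2 ± SE, limma adjusted p = 0.0450). With any 1 of the 6 ST-HSC arrays left out Slamf1 did not pass, at adjusted p-values of 0.0517 to 0.14. The Slamf1 arrays did not overlap, and those of Cd48 (0.13 ± 0.30), Flt3 (-0.32 ± 0.15), Kit (0.02 ± 0.12) and Cd34 (0.06 ± 0.13) did. Ly6a, which encodes Sca-1, was not analysed here. The Y-linked genes Uty and Kdm5d moved with the source, while Eif2s3y, also Y-linked, did not pass (0.21, limma adjusted p = 0.474). Uty was at 7.14, 7.77 and 7.74 in FL and at 3.77, 3.90 and 3.82 in BM, and Kdm5d at 7.63, 8.09 and 7.64 in FL and 4.67, 4.55 and 4.55 in BM. The labels give no sex, and in these arrays the level of Uty and Kdm5d and the source cannot be told apart. A difference in sex between the sources was not tested, and it could not be told apart from the FL minus BM differences below.

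Of the 19505 genes, 2367 were higher in FL (12.1%) and 1271 lower (6.52%) at an adjusted p under 0.05, over all genes, in a limma fit of all 18 arrays. The median difference over all genes was -0.005. Genes that pass this threshold are named as higher or lower below, and differences are given as FL minus BM on the log2 scale ± SE. At least 2-fold differences were found for 690 of them, 399 higher and 291 lower, and at least 4-fold differences for 40 higher and 60 lower genes. The 3 FL and 3 BM arrays did not overlap for 34.8% of all genes, and for 2171 of the higher and 1218 of the lower ones.

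Arrays BM ST-HSC b and c stand apart from the other ST-HSC arrays by a narrow spread of their values. Their interquartile ranges were 2.63 and 2.65 on the log2 scale, against 3.06, 3.18 and 3.07 in FL ST-HSC a, b and c and 3.06 in BM ST-HSC a. Among the LT-HSC arrays, BM LT-HSC c (2.61) and FL LT-HSC b (2.71) were narrow too, and they enter the same fit. BM b and c correlated with each other at 0.993 over genes, and with BM a at 0.976 and 0.977, where FL arrays correlated with BM arrays at 0.948 to 0.975. In 10 bins of genes by mean level, the median of the FL mean minus BM a lay between -0.03 and 0.08 in every bin. Against BM b and c it lay between -0.23 and -0.16 in the 4 dimmest bins and between 0.18 and 0.33 in the 4 brightest. The share of higher genes followed the level, at 1.08% in the dimmest bin and 23.2% in the brightest. Gene lists are therefore set beside all genes at the same levels, meaning those within the interquartile range of the list's mean levels. Without BM b and c, which leaves 3 FL arrays against BM a alone and assumes that this array varies like the other groups, 196 genes were higher (1.0%) and 278 lower (1.43%). Of these, 191 of the higher and 261 of the lower genes were also called with all arrays. Differences of genes given below as "against BM a" are from that fit. Leaving out the narrow LT-HSC arrays as well changed counts of called genes but not the list medians. Counts of calls against BM a thus depend also on the spread in other groups, and fewer calls need not mean smaller differences.

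**Figure D1:**
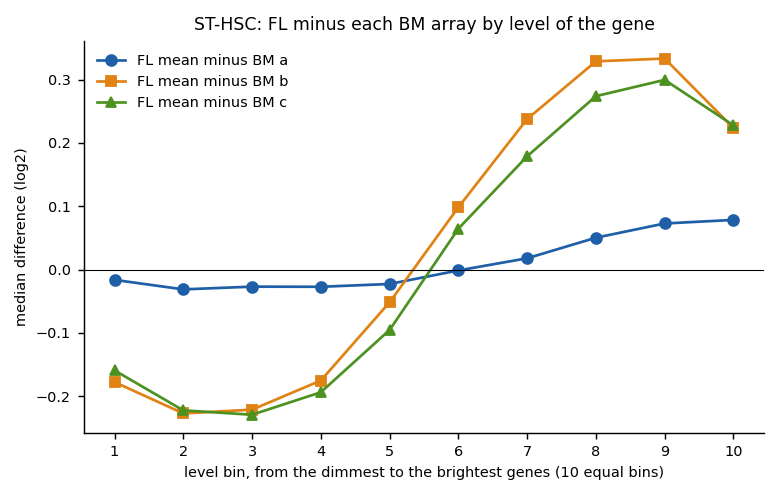
The plot shows the median difference between the mean of the 3 FL ST-HSC arrays and each BM ST-HSC array (log2, y axis) in 10 equal bins of genes from the dimmest to the brightest (x axis). The line of BM a stays between -0.03 and 0.08, while those of BM b and c run from -0.23 among dim genes to 0.33 among bright ones.

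Genes of the fetal program were among the largest differences. Of 21 imprinted genes measured, 10 were higher and 1 lower, where 13.48% of the genes at the same levels were higher and 6.88% lower. The median difference was 0.87 over the list, against 0.06 over all genes at the same levels. Mir675, the gene of the microRNA that is cut from the imprinted H19 transcript, had the largest positive difference of all genes called with arrays that do not overlap. Its signal was 12.48, 12.16 and 12.41 in FL, against 7.08, 7.63 and 7.82 in BM. FL was 28.7-fold higher, a log2 difference of 4.84 ± 0.16 (adjusted p = 3.22e-12), with all FL arrays far above all BM arrays. H19 itself was not analysed here. The mature products, which the array does not read apart from their precursor, are printed from RefSeq (GRCm38.p6, minus strand of chromosome 7) because this was the largest fetal difference, with the seed, bases 2 to 8, in capitals.

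miR-675-5p, chr7:142577112-142577133: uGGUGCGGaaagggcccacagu

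miR-675-3p, chr7:142577078-142577099: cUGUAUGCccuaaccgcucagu

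The 2 arms have different seeds. Igf2, the imprinted growth factor beside H19, was at 12.17, 11.94 and 12.23 in FL, against 8.71, 8.91 and 8.78 in BM. It was 9.92-fold higher in FL (3.31 ± 0.16, adjusted p = 5.65e-10). Dlk1, an imprinted transmembrane protein of the Notch ligand family, was at 10.58, 10.26 and 10.67 in FL, against 7.29, 7.36 and 7.71 in BM (3.05 ± 0.16, adjusted p = 1.03e-09). In all 3 genes the spread within a source was small beside the gap between the sources. Igf2r, the receptor that takes up and clears Igf2, was at 10.04, 9.18 and 9.98 in FL and at 8.76, 7.37 and 7.45 in BM (1.87 ± 0.43), and 0.98 against BM a, where it did not pass. Plagl1, a zinc finger factor of an imprinted gene network, was higher by 1.47 ± 0.23. The lower gene was Phlda2, a growth-restraining gene in the placenta, at 6.69, 7.19 and 6.34 in FL and 8.90, 8.38 and 8.49 in BM (-1.85 ± 0.31). Without BM b and c, 7 imprinted genes were higher and 1 lower, with a median of 0.59.

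Regulators known from fetal tissues, a list of 9 measured genes, were higher in 7 cases and lower in none. At the same levels 15.9% of genes were higher and 6.57% lower. The median was 1.03 against 0.10 at the same levels. Igf2bp3, which binds and stabilises mRNAs, was at 9.47, 9.98 and 9.94 in FL, against 7.7, 7.05 and 7.38 in BM (2.42 ± 0.18, adjusted p = 5.51e-08). Lin28b, which blocks the maturation of let-7 microRNAs, was at 8.15, 9.14 and 8.08 in FL, against 6.28, 6.36 and 6.38 in BM (2.12 ± 0.26, adjusted p = 3.12e-05). The let-7 genes themselves were not analysed here. Hmga2, an architectural chromatin protein and a target of let-7, was higher by 1.03 ± 0.19, with BM a at 9.12 much nearer the lowest FL array (9.42) than BM b and c at 8.17 and 8.29. Against BM a its difference was 0.44, and it did not pass. Mycn, a Myc family factor, was higher by 1.59 ± 0.24, and the DNA-binding factors Arid3a and Arid3b by 1.04 ± 0.14 and 0.88 ± 0.17. Without BM b and c 4 genes of the list passed, and its median, 1.10, was no smaller than with all arrays.

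**Figure D2:**
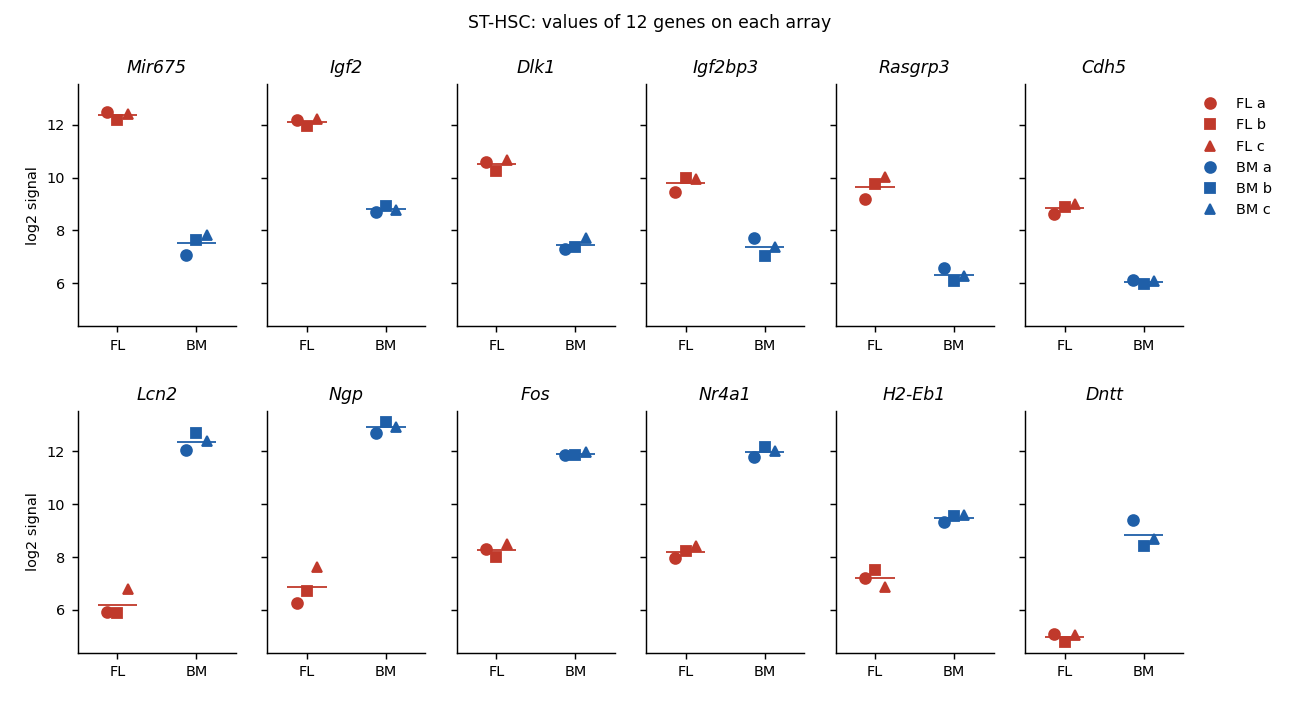
Log2 signals of 12 genes on the 3 FL (red, left) and 3 BM (blue, right) ST-HSC arrays, with the mean of each source as a line and array a, b or c by the shape of the point. In the upper row all FL points lie above all BM points (Mir675 12.16 to 12.48 against 7.08 to 7.82), and in the lower row all lie below (Lcn2 5.89 to 6.79 against 12.04 to 12.70).

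Several other genes of the 20 largest positive differences encode adhesion, signalling and cytoskeletal proteins. Cdh17, a cadherin known from intestine and fetal liver, was at 9.09, 8.93 and 9.12 in FL, against 5.20, 5.26 and 5.09 in BM (3.87 ± 0.19, adjusted p = 8.68e-10). Spats2, a serine-rich cytoplasmic protein, was at 9.0, 9.37 and 8.97 in FL, against 5.52, 5.6 and 5.90 in BM (3.44 ± 0.20). Both were as large against BM a, at 3.85 and 3.60. Fscn1, which bundles actin, was higher by 3.16 ± 0.31, and Cnn3, a calponin that binds actin, by 2.84 ± 0.24. Bank1, a scaffold of B cell receptor signalling, was at 10.82, 11.09 and 11.06 in FL, against 8.38, 7.98 and 7.96 in BM (2.88 ± 0.22). Stc1, a secreted glycoprotein hormone, was higher by 2.76 ± 0.21, Grap, an adaptor of the Grb2 family, by 2.71 ± 0.24, and Nrep, a neuronal regeneration-related protein, by 2.70 ± 0.15. Stfa1, which encodes a stefin known from the granulocyte lineage, was the only gene of its granule list that was higher. It stood at 9.70, 9.87 and 10.15 in FL, against 6.21, 6.86 and 6.36 in BM (3.43 ± 0.63), and is 1 of a family of near-identical stefin genes whose signals may not be told apart.

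Endothelial genes were higher as well: 10 of 21 measured, with none lower, where 11.6% of the genes at the same levels were higher. Cdh5, the junction protein VE-cadherin, was at 8.62, 8.90 and 9.0 in FL, against 6.12, 5.96 and 6.09 in BM (2.79 ± 0.21, adjusted p = 9.12e-08). Ramp2, a partner of the adrenomedullin receptor, was at 9.15, 9.73 and 9.39 in FL, against 6.40, 6.87 and 6.85 in BM (2.72 ± 0.16). Tek, the angiopoietin receptor that stem cells carry too, was at 9.06, 9.12 and 9.61 in FL, against 8.04, 7.14 and 7.37 in BM (1.75 ± 0.36). The groups did not overlap in any of these genes. Ptprb, a phosphatase of endothelial junctions, was higher by 2.02 ± 0.25, Kdr, a VEGF receptor, by 1.13 ± 0.21, and Cldn5, a tight junction protein, by 1.33 ± 0.38. Cldn5 was highest in FL b (9.23), against 7.74 and 7.47 in FL a and c and 6.60 to 6.99 in BM, and did not pass without FL b (adjusted p = 0.127), BM b or BM c. The median over the list was 0.63 with all BM arrays and 0.57 against BM a, where 3 members passed. The mean level of the list was 8.12 to 8.32 in FL and 7.39 to 7.41 in BM, and the part of endothelial cells in the sort was not tested. In these bulk samples, more cells of a type and more RNA per cell cannot be told apart.

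Genes of cell division were higher in FL, and here the answer depended on the BM arrays. Of 64 mitosis genes 47 were higher, of 28 kinetochore genes 22 and of 52 S phase genes 36, with none lower in any of the 3 lists. The medians were 0.78, 0.93 and 0.59, against 0.23, 0.20 and 0.23 over all genes at the same levels, where 24.5%, 21.2% and 24.9% were higher. Bub1b, a kinase-like protein of the spindle checkpoint, was at 9.25, 9.47 and 8.97 in FL, against 8.23, 6.99 and 6.43 in BM (2.01 ± 0.29, adjusted p = 1.60e-04). Its partner Bub1 was at 9.61, 9.56 and 9.53 in FL, against 8.59, 7.33 and 6.91 in BM (1.96 ± 0.29). In both genes BM a lay between the FL arrays and the other BM arrays. Cdk1, the kinase that drives entry into mitosis, was at 11.68, 11.85 and 11.26 in FL, against 10.68, 10.06 and 9.55 in BM (1.5 ± 0.22). Ncaph, a condensin subunit, was higher by 1.73 ± 0.27, the checkpoint kinase Ttk by 1.62 ± 0.28, and Mybl2, a transcription factor of late cell cycle genes, by 1.34 ± 0.26. The largest kinetochore difference was that of Ska3, which couples chromosomes to microtubules, at 9.40, 9.41 and 9.0 in FL and 8.10, 7.61 and 7.38 in BM (1.57 ± 0.19). Cenph, Cenpk and Cenpn, of the inner kinetochore, were higher by 1.19 ± 0.19, 1.18 ± 0.23 and 1.13 ± 0.17. Ndc80, which holds the microtubule, was higher by 1.13 ± 0.16.

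Among the S phase genes the histone chaperone Nasp was at 10.47, 10.64 and 10.18 in FL, against 9.55, 8.74 and 8.58 in BM (1.47 ± 0.19, adjusted p = 5.76e-05). Exo1, a repair exonuclease, was higher by 1.40 ± 0.23, Gins1 and Gins2, of the replicative helicase, by 1.36 ± 0.21 and 1.06 ± 0.15, Pole2, a subunit of the leading-strand polymerase, by 1.27 ± 0.20, and the origin factor Mcm10 by 1.06 ± 0.16. The same order of BM arrays ran through the lists. Over the 144 genes of the 3 lists together, BM a was above both BM b and BM c for 127, the FL mean was above BM a for 133, and the lowest FL array was above BM a for 116. The mean of the mitosis list was 9.83, 10.07 and 9.75 in FL, against 9.50, 9.0 and 8.77 in BM. Against BM a the median differences were 0.42 for mitosis, 0.48 for kinetochore and 0.35 for S phase genes, and 4, 1 and 2 members passed. The direction held against every BM array, but its size was larger against the 2 narrow ones. Whether that reflects the cells or the arrays was not tested. Of 32 DNA repair genes 17 were higher and none lower, with a median of 0.54 against 0.15 at the same levels, where 18.1% were higher. Against BM a the median was 0.23 and none passed. The largest were Fancb (1.29 ± 0.26) and Fanci (1.25 ± 0.18), of the Fanconi anemia pathway for crosslink repair.

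**Figure D3:**
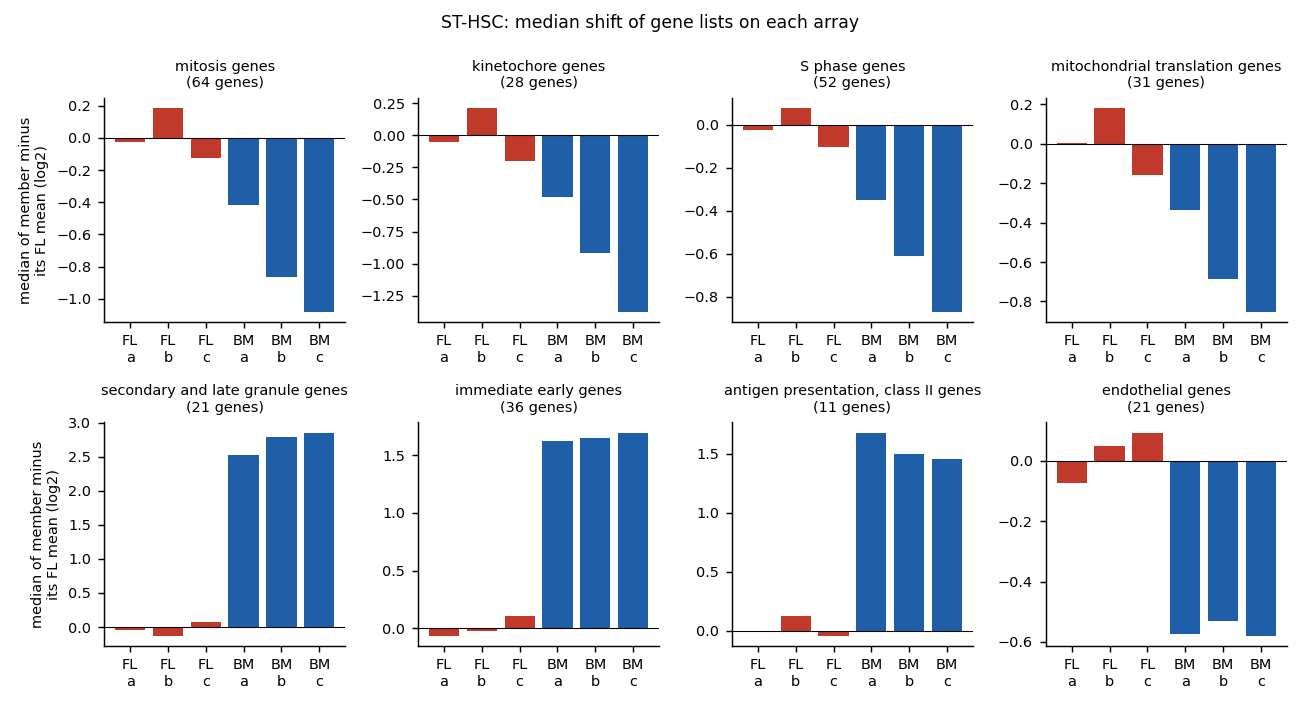
Each bar is the median over a gene list of the member's log2 value on that ST-HSC array minus the member's FL mean, for the 3 FL (red, left) and 3 BM (blue, right) arrays; the y axes differ between panels and all include 0. In the upper row, lists of division and mitochondrial translation, BM a lies nearer to FL than BM b and c (mitosis -0.42, -0.86 and -1.08), and in the lower row the BM arrays lie at like heights (immediate early genes 1.62, 1.65 and 1.70).

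Promoters of these lists were read for motif letters on both strands, in RefSeq windows from 250 bases before to 50 after each gene's start (GRCm38.p6). The CHR, a short element (TTTGAA) through which late cell cycle genes are held off and switched on, was found in 36 of 54 mitosis windows (66.7%) and 11 of 25 kinetochore windows (44.0%), against 18.1% of all 27025 windows. Both CHR and the CCAAT box were found in 33 of the mitosis windows (61.1%), 8 of the kinetochore windows (32.0%) and 7.1% of all windows. A core of E2F sites (TTTNNCGC) was found in 16 of 41 S phase windows (39.0%) and 5.3% of all. Printed are the windows of 3 genes with large differences that hold these letters, in capitals on whichever strand they lie. They show CHR and CCAAT in Bub1b (plus strand) and Cdk1 (minus strand), and the E2F core in Pole2 (minus strand). Matches were counted whether or not those of different motifs overlapped, and a match is a description of the letters and not a site of binding.

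Bub1b, chr2:118597961-118598260: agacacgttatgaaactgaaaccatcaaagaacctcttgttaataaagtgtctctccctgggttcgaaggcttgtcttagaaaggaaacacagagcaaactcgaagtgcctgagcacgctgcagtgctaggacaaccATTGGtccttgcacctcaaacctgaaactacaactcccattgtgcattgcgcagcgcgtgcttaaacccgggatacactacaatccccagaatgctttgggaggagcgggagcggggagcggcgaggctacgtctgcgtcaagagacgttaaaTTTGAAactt

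Cdk1, chr10:69352863-69353162: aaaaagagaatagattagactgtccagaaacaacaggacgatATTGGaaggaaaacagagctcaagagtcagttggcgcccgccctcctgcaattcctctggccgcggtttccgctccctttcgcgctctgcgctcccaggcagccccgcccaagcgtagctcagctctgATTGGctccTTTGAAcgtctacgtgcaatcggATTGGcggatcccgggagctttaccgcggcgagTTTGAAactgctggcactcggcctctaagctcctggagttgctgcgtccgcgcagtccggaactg

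Pole2, chr12:69228141-69228440: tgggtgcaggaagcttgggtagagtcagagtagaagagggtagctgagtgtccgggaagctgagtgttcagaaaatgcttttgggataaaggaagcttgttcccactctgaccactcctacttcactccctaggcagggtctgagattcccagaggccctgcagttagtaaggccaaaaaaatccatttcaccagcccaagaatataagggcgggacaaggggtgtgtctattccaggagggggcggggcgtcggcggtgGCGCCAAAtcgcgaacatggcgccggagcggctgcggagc

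The Bub1b window holds 1 CHR and 1 CCAAT match, the Cdk1 window 2 and 3, and the Pole2 window 1 E2F match. Not every gene with a large difference held these letters. The windows of Nasp and Mcm10 had 0 E2F matches, and that of Ska3 had 1 CHR and 0 CCAAT matches. The levels of Bub1b, Cdk1 and Pole2 were ordered alike, with the 3 FL arrays above BM a and BM a above BM b and c.

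Lists of growth and metabolism leaned higher too, by margins over the genes at the same levels that differed between the lists. These lists also lost nearly all calls without BM b and c. Of 31 genes of the mitochondrial ribosome and translation 22 were higher, with a median of 0.61 against 0.23 at the same levels, where 24.4% were higher. Mrpl3, a protein of the large mitochondrial ribosomal subunit, was at 11.18, 10.91 and 10.71 in FL, against 10.23, 9.67 and 9.59 in BM (1.11 ± 0.19). Polrmt, the mitochondrial RNA polymerase, was higher by 0.87 ± 0.23, and did not pass without FL b, BM b or BM c (adjusted p up to 0.0851). Of 39 oxidative phosphorylation genes 16 were higher, with a median of 0.30 against 0.19, among them Atp5c1 of the ATP synthase (0.80 ± 0.16) and Ndufb8 of complex I (0.79 ± 0.16). Of 36 ribosome biogenesis genes 12 were higher, with a median of 0.32 against 0.22, led by Mrto4 (1.14 ± 0.25), a factor of the large ribosomal subunit. The shares called in these last 2 lists (16 of 39 and 12 of 36) stand beside 24.2% and 24.8% of the genes at the same levels. With the interquartile range as a covariate, 2 oxidative phosphorylation genes and 1 ribosome biogenesis gene were higher, with medians of 0.19 and 0.15. Of 19 genes of serine, one-carbon and nucleotide synthesis 9 were higher, led by Mthfd2, the mitochondrial folate enzyme, at 9.63, 10.06 and 9.18 in FL and 8.54, 8.24 and 8.03 in BM (1.35 ± 0.20), and Shmt1 (1.0 ± 0.18). The median of this list was 0.52 against 0.24 at the same levels, where 25.2% were higher. No member of these 4 lists was lower. Against BM a their medians were 0.34, 0.18, 0.19 and 0.28, and 1 member passed, in the last list.

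Of 30 glycolysis and hypoxia genes 13 were higher and 2 lower, with a median of 0.44 against 0.21 at the same levels, where 22% were higher and 5.73% lower. Ankrd37, a target of the hypoxia factor HIF, was at 10.54, 10.58 and 10.30 in FL, against 8.72, 8.66 and 8.73 in BM (1.77 ± 0.11, adjusted p = 1.31e-08). The enzymes Pgam1 (0.86 ± 0.15), Hk2 (0.78 ± 0.20) and Pgk1 (0.77 ± 0.18) were higher. Ndrg1, a stress- and hypoxia-induced gene, was at 7.81, 7.89 and 8.32 in FL, against 10.97, 10.66 and 11 in BM (-2.87 ± 0.22, adjusted p = 9.46e-08). Vegfa, the endothelial growth factor, was lower by a difference of -0.73 ± 0.23, and stood at 10.01 in BM a, near the FL values of 9.73 to 9.96, but at 10.76 and 10.98 in BM b and c. Against BM a 1 member was higher and 1 lower. Vegfa did not pass when any single ST-HSC array other than BM a was left out (adjusted p up to 0.178), and Hk2 and Pgk1 each lost their call without 1 or more single arrays (up to 0.0828). Of 22 cholesterol and fatty acid synthesis genes 8 were higher, among them Elovl6, which lengthens fatty acids (0.90 ± 0.24), and 1 was lower, Insig1, a brake on sterol synthesis (-0.54 ± 0.15). The share of higher genes at the same levels was 19.6%, and their median 0.18 against 0.28 over the list. Without BM b and c none of these 22 passed, and the median was 0.08. Elovl6 and Insig1 also lost their calls without 1 or more single arrays (adjusted p up to 0.0843).

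The immediate early genes, which cells switch on within minutes of a stimulus and also during tissue dissociation, were lower in FL. Of 36 measured 30 were lower and none higher, with a median difference of -1.73 against 0.21 at the same levels, where 5.59% were lower. Fos, a subunit of the factor AP-1, was at 8.32, 8.0 and 8.50 in FL, against 11.85, 11.87 and 11.99 in BM. BM was 12.4-fold higher (-3.63 ± 0.25, adjusted p = 3.47e-08). Fosb was at 9.55, 8.60 and 9.69 in FL, against 12.63, 12.89 and 12.93 in BM (-3.54 ± 0.40). The gap between the sources was several times the spread within them. Nr4a1, an orphan nuclear receptor tied to stem cell rest, was at 7.97, 8.24 and 8.40 in FL, against 11.79, 12.17 and 12.00 in BM (-3.78 ± 0.37). Rgs1, a brake on chemokine receptor signals, was at 7.75, 7.43 and 7.15 in FL, against 11.82, 12.30 and 12.26 in BM (-4.69 ± 0.30). Egr1, a zinc finger factor also tied to stem cell rest, differed by -2.97 ± 0.39 and the chemokine gene Ccl3 by -3.22 ± 0.17. The BM arrays were alike here: the list mean was 8.57, 8.58 and 8.71 in FL, against 10.26, 10.25 and 10.31 in BM. Against BM a alone 21 members were lower and the median was -1.62. Handling and tissue cannot be told apart in this design.

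Genes that restrain the cell cycle leaned the other way from those of division. Of 26 inhibitors and quiescence genes 12 were lower and 2 higher, with a median of -0.40 against 0.12 at the same levels, where 6.49% were lower. Cdkn1a, the inhibitor p21, was at 7.98, 8.62 and 8.64 in FL, against 10.29, 10.32 and 10.28 in BM (-1.88 ± 0.22, adjusted p = 2.38e-05). Klf6 (-1.59 ± 0.19), Klf4 (-1.05 ± 0.15) and the antiproliferative Btg2 (-1.49 ± 0.23) were lower, as was Gadd45b, a stress gene (-1.19 ± 0.14). These 4 are known as stimulus-responsive genes too. Cdkn2c, the inhibitor p18, was at 7.05, 7.15 and 6.90 in FL, against 8.16, 7.7 and 7.93 in BM (-0.89 ± 0.16). The higher members were Foxo1, a factor of stress resistance (0.68 ± 0.19), and Cdkn2b, the inhibitor p15, at 6.94, 7.0 and 6.93 in FL and 6.57, 6.52 and 6.60 in BM (0.39 ± 0.10). Both higher members lost their call without 1 or more single arrays, Foxo1 at an adjusted p of up to 0.11 and Cdkn2b of up to 0.0621. Against BM a 7 members were lower, with a median of -0.47.

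The largest negative differences were those of genes for neutrophil granule proteins. Of 21 secondary and late granule genes 17 were lower and 1 higher, with a median of -2.79 against 0.05 at the same levels, where 6.88% were lower. Lcn2, the iron-withholding lipocalin, was at 5.91, 5.89 and 6.79 in FL, against 12.04, 12.70 and 12.38 in BM. BM was 72.3-fold higher (-6.18 ± 0.47, adjusted p = 9.32e-08). Ngp, a granule protein of the cathelicidin family, was at 6.26, 6.72 and 7.61 in FL, against 12.70, 13.12 and 12.91 in BM (-6.04 ± 0.37). In both, FL c was the highest of the FL arrays, and BM b the highest of the BM arrays. Camp, the antimicrobial cathelicidin, was at 7.60, 7.96 and 8.16 in FL, against 12.29, 12.70 and 12.29 in BM (-4.52 ± 0.34). Differences of -4.89 ± 0.38 for the collagenase Mmp8, -4.30 ± 0.53 and -3.81 ± 0.42 for the calcium-binding S100a8 and S100a9, -4.19 ± 0.51 for the chitinase-like Chil3 and -4.00 ± 0.40 for the resistin-like Retnlg followed. The mean over the list was 6.74 to 6.90 in FL, against 9.22, 9.69 and 9.30 in BM, so every BM ST-HSC array was above every FL array. The median FL minus BM difference of the list was -3.50 in LT-HSC and -2.22 in MPP. The part of mature neutrophils or their free RNA in the BM sort was not tested. Against BM a the median was -2.53.

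The primary granule and myeloid priming genes, which early progenitors make themselves, moved less. Of 22 measured 4 were lower and 1 higher, where 6.15% of the genes at the same levels were lower and 18.9% higher. The median was -0.28 with all arrays and -0.29 against BM a, where 1 member was lower. With the interquartile range of each array as a covariate it was 0.0005, with 2 members lower and 2 higher. Elane, neutrophil elastase, was at 10.76, 10.68 and 11.11 in FL, against 12.14, 12.01 and 11.65 in BM (-1.08 ± 0.32, adjusted p = 0.0263). It did not pass without FL a (0.0719), FL b (0.0977) or BM b (0.0897). Ly6c2, a surface marker of monocytes and granulocytes, was at 6.44, 6.35 and 6.45 in FL, against 10.21, 10.71 and 10.20 in BM (-3.96 ± 0.34). Its neighbour Ly6c1, whose sequence is nearly the same, gave a difference of -3.51 ± 0.32, and the array may not separate the pair. Prss34, a protease of basophils and mast cells (-2.28 ± 0.46), and Clec12a, a lectin receptor (-1.40 ± 0.42), were lower. The call of Clec12a was lost without FL a, FL b, BM b or BM c, at adjusted p-values up to 0.114. Ctsg (-0.74 ± 0.41) and Lyz2 (-0.74 ± 0.26) did not pass, and Cebpd, a myeloid transcription factor, was the higher one (0.58 ± 0.13). Il1b, which encodes an inflammatory cytokine, was at 5.56, 6.22 and 6.07 in FL, against 9.17, 9.45 and 9.09 in BM (-3.29 ± 0.40).

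Antigen presentation genes were lower in FL. Of 11 class II genes 9 were lower and none higher (median -1.55, against 0.21 at the same levels), and of 19 class I genes 13 were lower and none higher (median -0.69, against 0.22). H2-Eb1, a class II chain, was at 7.22, 7.52 and 6.85 in FL, against 9.33, 9.57 and 9.59 in BM (-2.30 ± 0.25, adjusted p = 7.42e-06). H2-Ab1, of the other class II pair, was at 7.7, 7.92 and 7.75 in FL, against 9.85, 9.86 and 9.73 in BM (-2.02 ± 0.26). H2-DMa and H2-DMb1, which load peptides onto class II, differed by -1.98 ± 0.15 and -1.66 ± 0.15. No FL array reached a BM array in these genes. In class I, H2-K1 was at 11.18, 11.48 and 11.36 in FL, against 12.66, 12.81 and 12.75 in BM (-1.40 ± 0.13, adjusted p = 7.25e-07), and H2-D1 at 9.92, 10.14 and 9.91 in FL, against 11.47, 11.21 and 11.13 in BM (-1.28 ± 0.14). The peptide transporters Tap1 (-1.07 ± 0.16) and Tap2 (-1.39 ± 0.16) were lower as well. Class I genes are close in sequence, so their probe sets may share signal. Genes at the same levels were lower in 5.73% of cases for class II and 5.54% for class I. Against BM a 8 class II and 9 class I members were lower, with medians of -1.68 and -0.77.

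Interferon response genes were lower more than higher. Of 45 measured 12 were lower and 4 higher, where 6.62% of the genes at the same levels were lower and 16.0% higher, and the median was -0.25 against 0.11. Ifi27 was at 9.08, 9.15 and 8.96 in FL, against 10.19, 10.41 and 10.38 in BM (-1.27 ± 0.12, adjusted p = 9.91e-07). Iigp1, a GTPase of cell-autonomous defence (-1.42 ± 0.22), Gbp4 (-1.21 ± 0.18), the nucleic acid sensor Zbp1 (-1.12 ± 0.13) and Oas3 (-0.97 ± 0.13) were lower. The 4 higher ones were Ifit2 (0.87 ± 0.20), the ubiquitin-like Isg15 (0.62 ± 0.16), Oas1a (0.46 ± 0.15) and the tether Bst2 (0.40 ± 0.10). Isg15 was at 8.02, 8.61 and 8.10 in FL, against 7.63, 7.71 and 7.53 in BM. Each of the 4 higher genes lost its call without 1 or more single arrays (adjusted p up to 0.128, for Oas1a). Against BM a 7 members were lower and none higher.

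Of 28 transcription factors of stem cells 6 were lower and 1 higher, where 5.69% of the genes at the same levels were lower and 22% higher. The FL and BM arrays did not overlap for 14 of the 28, beside 34.8% of all genes. The median difference was -0.11 against 0.21 at the same levels. Against BM a 2 members were lower and none higher. Nfia, a nuclear factor I protein, was at 8.63, 8.82 and 9.18 in FL, against 11.95, 11.28 and 10.81 in BM. BM was 5.53-fold higher (-2.47 ± 0.23, adjusted p = 1.10e-06). Its relative Nfix, which supports the survival of stem cells, was at 10.65, 10.91 and 10.98 in FL, against 12.02, 11.83 and 11.88 in BM (-1.06 ± 0.19). Both sets of arrays were apart. Nkx2-3 (-0.92 ± 0.17) and Gfi1b (-0.51 ± 0.15) were lower, Gata2 did not pass (-0.76 ± 0.30), and Ikzf2, the Ikaros family factor Helios, was the higher member (0.84 ± 0.25). Gfi1b and Ikzf2 lost their calls without 1 or more single arrays (adjusted p up to 0.087 and 0.138). Prdm16, which stem cells need in the fetal liver, was at 7.27, 7.69 and 7.49 in FL, against 7.39, 6.37 and 6.24 in BM (0.82 ± 0.36), where BM a lay among the FL arrays and the test was not passed. Of 22 Hox genes 2 were higher, Hoxa3 (0.81 ± 0.22) and Hoxb9 (0.80 ± 0.21), and 2 lower, Hoxd8 (-0.58 ± 0.15) and Hoxa4 (-0.47 ± 0.16). These shares are near those of all genes at the same levels, 10.6% higher and 7.56% lower, and without BM b and c none of the 22 passed. All 4 calls were also lost without 1 or more single arrays (adjusted p up to 0.199, for Hoxa4). Of 23 Polycomb and DNA methylation genes 6 were higher and 1 lower, a share of higher genes near the 22.7% of the genes at the same levels, with medians of 0.30 and 0.22. The largest difference was that of Dnmt3b, a de novo DNA methyltransferase, at 9.20, 9.32 and 9.68 in FL and 8.21, 8.04 and 8.05 in BM (1.30 ± 0.24). The lower one was Ezh1, the Ezh2 paralog of resting cells (-0.63 ± 0.16), whose call was lost without FL a, FL b or BM b (adjusted p up to 0.063). No member of the Polycomb and DNA methylation list passed against BM a alone.

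Surface genes of the stem cell signature went both ways, with 5 of 23 higher and 4 lower. The share of higher genes was near the 18.4% at the same levels, where 6.26% were lower. The median was 0.20 with all arrays, 0.19 against BM a, where 1 was higher and 3 lower, and -0.11 with the interquartile range as a covariate. Alcam, an adhesion molecule of stem cells and niche, was at 8.98, 8.90 and 8.86 in FL, against 11.55, 11.23 and 11.49 in BM (-2.51 ± 0.15, adjusted p = 5.35e-09). Abcb1a, a drug efflux pump, was at 7.03, 7.15 and 7.17 in FL, against 8.71, 8.53 and 8.98 in BM (-1.62 ± 0.26). Itga2b, the integrin CD41, differed by -1.09 ± 0.14. All 3 were lower in FL with no overlap. Fgd5, a guanine exchange factor that marks stem cells, was at 10.57, 10.49 and 10.76 in FL, against 9.08, 8.91 and 9.0 in BM (1.61 ± 0.21, adjusted p = 5.06e-05). Ctnnal1, alpha-catulin, which marks stem cells in the adult, was higher by 1.36 ± 0.25, and Neo1, a netrin receptor, by 1.06 ± 0.33, which did not pass without FL b, FL c, BM b or BM c (adjusted p up to 0.139). Of 23 homing and niche receptors 7 were higher and 1 lower, where 17.7% of the genes at the same levels were higher. Against BM a 3 were higher and none lower, with a median of 0.14 in place of 0.37. Ccr9, the receptor of the thymic chemokine Ccl25, was at 9.26, 9.97 and 9.45 in FL, against 6.56, 6.46 and 6.93 in BM (2.91 ± 0.37, adjusted p = 4.41e-05). The integrin Itgal was higher (1.19 ± 0.27), as was the Slit receptor Robo1 (1.0 ± 0.16), and the integrin Itgb3 was lower (-1.0 ± 0.21).

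Of 32 cytokine and growth factor receptors 7 were higher and 2 lower, near the 17.5% higher and 6.38% lower among genes at the same levels. Against BM a 1 was higher and 2 lower, with a median of 0.02 in place of 0.22. Tgfbr1, a TGF-beta receptor, was at 8.49, 8.95 and 8.53 in FL, against 7.54, 7.34 and 7.46 in BM (1.21 ± 0.17), and Il6st, the shared receptor gp130, at 10.70, 10.69 and 10.72 in FL, against 10.12, 9.29 and 9.63 in BM (1.03 ± 0.18). The lower receptors were those of the interleukin-1 family: Il1r1 was at 6.78, 6.89 and 6.98 in FL, against 8.76, 8.09 and 8.76 in BM (-1.65 ± 0.22), and Il18r1 differed by -1.0 ± 0.25, which did not pass without FL b (adjusted p = 0.0582). Of 21 lymphoid priming genes 9 were higher and 2 lower, where 15.6% of the genes at the same levels were higher and 6.28% lower. Against BM a 2 were higher and 1 lower, with a median of 0.29 in place of 0.46. Il7r, the interleukin-7 receptor of lymphoid progenitors, was at 7.72, 8.43 and 7.74 in FL, against 6.56, 6.35 and 6.84 in BM (1.38 ± 0.29), and Gimap9, a GTPase of lymphocytes, was higher by 1.16 ± 0.20. The lower ones were Ly6d, a marker of lymphoid progenitors (-0.87 ± 0.27, and not passing when any single array other than BM a was left out, at adjusted p-values up to 0.128), and Dntt, the terminal transferase that adds bases to rearranged antigen receptors. Dntt was at 5.10, 4.79 and 5.06 in FL, against 9.40, 8.42 and 8.67 in BM, 14.3-fold higher in BM (-3.84 ± 0.36, adjusted p = 1.22e-06). Genes of the same list thus stood at opposite ends of the comparison.

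Markers of other cells that a sort could hold were measured as lists. Of 26 hepatocyte genes 5 were higher and 1 lower, where 8.53% of the genes at the same levels were higher, and against BM a none passed. Alb, albumin, was at 9.92, 10.95 and 7.77 in FL, against 6.55, 7.01 and 7.17 in BM (2.63 ± 0.69, adjusted p = 0.0147), and Afp at 9.09, 10.17 and 7.43 in FL, against 7.25, 7.66 and 7.77 in BM (1.33 ± 0.62), which did not pass. FL c had the lowest value in both and lay at or near the BM level. The list mean was 7.63, 7.95 and 7.23 in FL, against 7.22 to 7.29 in BM. Rbp4 (1.65 ± 0.54) and Apoa2 (1.36 ± 0.40) were higher, and Apoa4 was lower (-0.66 ± 0.19). Alb did not pass without FL a (adjusted p = 0.0519) or FL b (0.0937), and Rbp4, Apoa2 and Apoa4 lost their calls without 1 or more single arrays (up to 0.2). The same order of FL arrays held for the embryonic globin Hbb-y, at 9.09, 10.30 and 7.39 in FL and 5.90, 6.02 and 6.16 in BM (2.90 ± 0.76, adjusted p = 0.0146), and for Hbb-bh1 (1.46 ± 0.53), which did not pass. Hbb-y did not pass without FL b (adjusted p = 0.0906) or BM b (0.0503), and against BM a neither Alb nor Hbb-y passed, at 3.00 and 3.02. Of 24 erythroid genes Hbb-y alone was higher and 4 were lower, beside 6.49% lower at the same levels, and against BM a 3 were lower. Car1, a carbonic anhydrase of erythroid precursors, was at 7.98, 7.62 and 6.89 in FL, against 12.26, 11.88 and 10.84 in BM (-4.17 ± 0.47), and Aqp1, a water channel, at 7.95, 8.92 and 7.93 in FL, against 10.97, 9.89 and 8.97 in BM (-1.68 ± 0.35). The mean of the erythroid list overlapped between the sources, at 8.84, 9.37 and 8.26 in FL and 9.36, 8.77 and 8.35 in BM. The part of hepatocytes and erythroid cells in these differences was not tested.

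Of 24 macrophage genes 9 were lower and none higher, where 7.72% of the genes at the same levels were lower. The arrays did not overlap for 16 of the 24, beside 34.8% of all genes. Against BM a the median was -0.71, beside -0.61 with all arrays. The macrophage genes stood at list means of 6.73 to 6.79 in FL and 7.30 to 7.38 in BM, led by Mpeg1, a pore-forming protein, at 5.95, 6.01 and 5.75 in FL and 7.96, 7.62 and 8.02 in BM (-1.97 ± 0.36). Of 24 genes of megakaryocytes and platelets 6 were lower and 1 higher, where 6.79% of the genes at the same levels were lower, and 4 were lower against BM a. Pf4, a platelet chemokine, was at 8.98, 8.93 and 8.58 in FL, against 9.84, 10.20 and 9.80 in BM (-1.12 ± 0.16), while Mmrn1, multimerin, was higher (0.85 ± 0.21) but did not pass without FL b, BM b or BM c (adjusted p up to 0.064). Of 17 B cell genes 4 were lower and 1 higher, where 7.47% of the genes at the same levels were lower. Against BM a none of the 17 passed, with a median of -0.42 beside -0.43. The list means were 7.19 to 7.32 in FL and 7.65 to 7.89 in BM. Cd79a, a chain of the B cell receptor, was at 7.22, 7.97 and 7.35 in FL, against 8.35, 8.79 and 8.41 in BM (-1.0 ± 0.33), and its partner Cd79b was the higher gene (0.56 ± 0.17). Both lost their calls without 1 or more single arrays (adjusted p up to 0.166 and 0.147). Of 22 T and NK cell genes 3 were lower, among them Nkg7 (-1.5 ± 0.22), and 1 was higher, the NK receptor Klrb1c (1.54 ± 0.17). At the same levels 7.83% of genes were lower, and against BM a 2 of the 22 were lower and 1 higher. In 18 mast cell, basophil and eosinophil genes 3 were lower, beside 7.88% at the same levels, with Mcpt8, a basophil protease, at -2.37 ± 0.40, and the cytokine Il4 was higher (1.95 ± 0.37), and against BM a 1 was lower and none higher. In 23 stromal genes the matrix proteins Postn (2.79 ± 0.22) and Fn1 (2.33 ± 0.33) were higher, and Gas6, a ligand of Axl receptors (-1.69 ± 0.19), Bgn (-1.40 ± 0.17) and Pdgfrb (-1.13 ± 0.18) were lower. At the same levels 8.20% of genes were higher and 7.88% lower, and against BM a the counts were as many. Postn stood at 9.97, 9.66 and 9.97 in FL, against 7.32, 6.84 and 7.07 in BM. The other 18 stromal genes were not called, and the part of stromal cells in these differences was not tested.

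**Figure D4:**
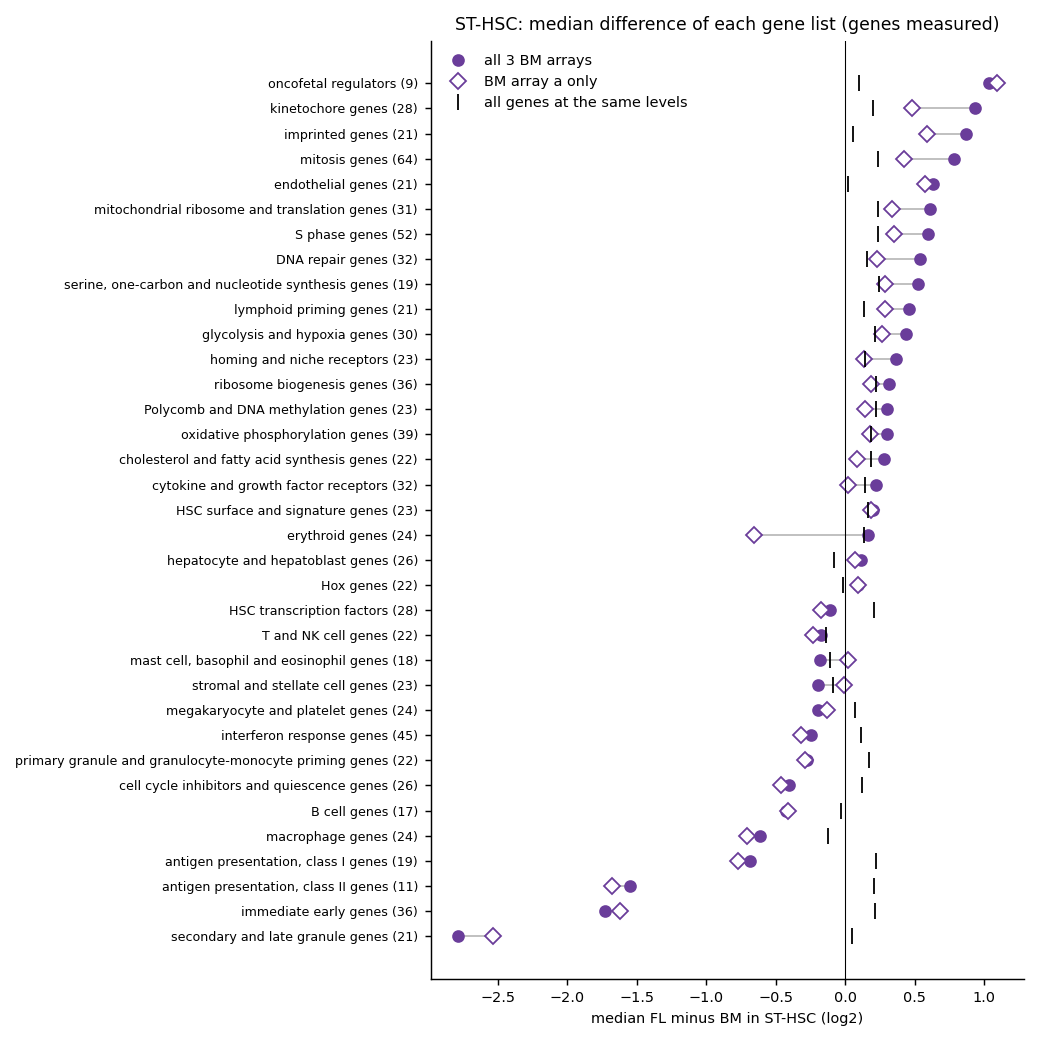
Median FL minus BM difference in ST-HSC (log2, x axis) of each gene list, with the number of measured genes in brackets; filled points use all 3 BM arrays, open diamonds BM array a only, and ticks mark the median of all genes at the list's levels. The granule (-2.79 and -2.53), immediate early (-1.73 and -1.62) and oncofetal lists (1.03 and 1.10) lie close together in both settings, while mitosis genes stand at 0.78 and 0.42.

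To ask where ST-HSC differed from the other populations, their FL minus BM difference was set against the mean of the LT-HSC and MPP differences in the same fit. For 46 genes the contrast was positive (0.236%) and for 6 negative (0.0308%), and 40 of the 52 were also called between FL and BM ST-HSC. The differences of the 3 populations do not share arrays. Rasgrp3, an exchange factor of Ras signalling, differed by 3.35 ± 0.25 in ST-HSC, against 1.09 in LT-HSC and 0.88 in MPP, a contrast of 2.37 ± 0.31 (adjusted p = 0.00370). Its ST-HSC values were 9.17, 9.76 and 10.03 in FL, against 6.57, 6.07 and 6.27 in BM. Cdh5 differed by 2.79 in ST-HSC, against 1.10 in LT-HSC and 0.64 in MPP (1.91 ± 0.26, adjusted p = 0.00370). Fn1 was at 10.77, 11.16 and 11.51 in FL, against 8.99, 8.83 and 8.65 in BM ST-HSC, and its differences in LT-HSC and MPP were 0.50 and 0.04 (contrast 2.05 ± 0.40). In these 3 genes the fetal excess was largest in ST-HSC.

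In other genes the sign differed between the populations. Il7r was higher in FL ST-HSC by 1.38, with -1.5 in LT-HSC and 0.49 in MPP (contrast 1.89 ± 0.35, adjusted p = 0.0317). Pld4, a phospholipase D family protein, differed by 1.04 in ST-HSC, -2.16 in LT-HSC and 0.31 in MPP (1.97 ± 0.32). Igfbp5 (2.06 ± 0.39), Slamf6 (1.91 ± 0.39) and Insyn2b (1.94 ± 0.37) had positive differences in ST-HSC and negative ones in the other two, of which those of Igfbp5 and Slamf6 in ST-HSC did not pass. A positive contrast also came from genes that were lower everywhere but least in ST-HSC. Jchain, the joining chain of plasma cell antibodies, was at 5.62, 5.94 and 5.23 in FL, against 7.20, 7.7 and 6.96 in BM ST-HSC (-1.69), with -3.81 in LT-HSC and -5.28 in MPP (2.85 ± 0.54). Aif1, a macrophage protein, gave -0.38, -2.47 and -2.40 in the same order (2.06 ± 0.36).

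The negative contrasts were led by Thbs1, the platelet and matrix protein thrombospondin. It was at 6.71, 7.19 and 7.36 in FL, against 9.97, 10.07 and 9.99 in BM ST-HSC (-2.92 ± 0.21), with -1.02 in LT-HSC and -1.66 in MPP (contrast -1.58 ± 0.26, adjusted p = 0.0160). Muc13, a transmembrane mucin, was at 8.48, 9.11 and 8.48 in FL, against 11.77, 11.74 and 11.74 in BM ST-HSC (-3.06 ± 0.20), with -1.31 and -2.10 in LT-HSC and MPP (-1.35 ± 0.25). P2ry2, a nucleotide receptor, was at 8.16, 8.29 and 8.13 in FL, against 9.47, 8.86 and 8.85 in BM, and its differences in LT-HSC and MPP were near 0 or positive, at 0.03 and 0.36 (-1.06 ± 0.21). Without BM ST-HSC b and c, with BM ST-HSC a left alone, the calls of this contrast were lost. Some genes did pass when the narrow LT-HSC arrays were left out as well. Mitosis genes had a median contrast of 0.55 and kinetochore genes of 0.68, with 1 member called in each. In ST-HSC, LT-HSC and MPP the median FL minus BM difference was 0.78, 0.22 and 0.18 for mitosis genes. For kinetochore genes it was 0.93, 0.36 and 0.16. The contrast called 52 genes beside the 3638 between FL and BM ST-HSC, with a larger median SE (0.21 against 0.17). Its count was 864 without BM ST-HSC a, so it does not measure how many genes differ between the populations.

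**Figure D5:**
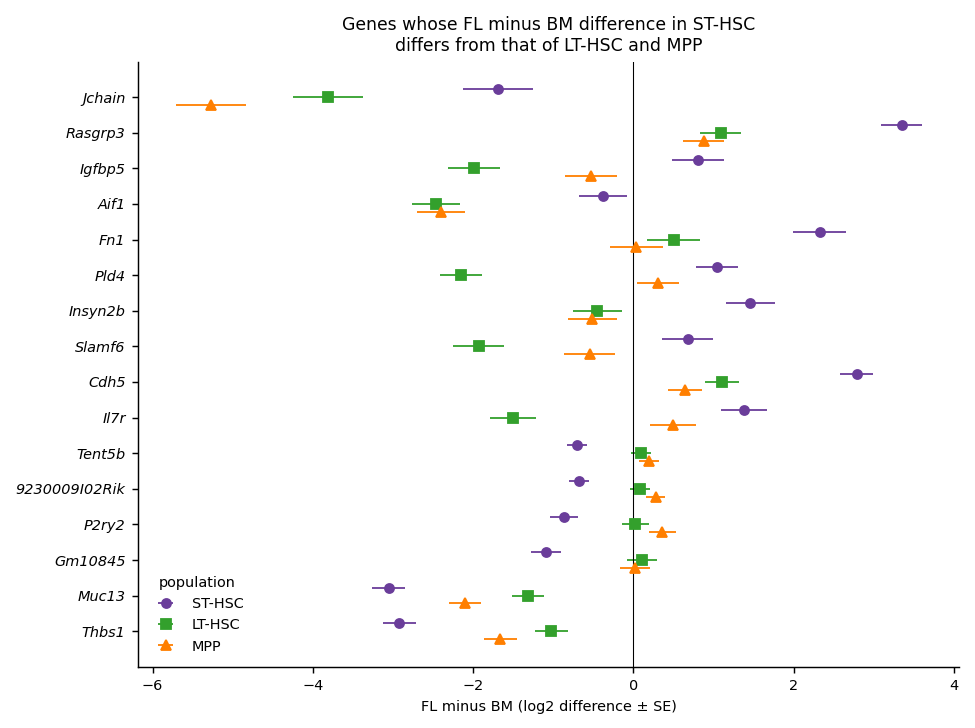
FL minus BM difference (log2 ± SE, x axis) in ST-HSC, LT-HSC and MPP for the 16 named genes whose ST-HSC difference departs from the mean of the other two. Rasgrp3, Cdh5 and Fn1 lie far to the right in ST-HSC only (3.35, 2.79 and 2.33), and Thbs1 and Muc13 farthest to the left there (-2.92 and -3.06).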

How the data were processed

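Each sample was a sort of cells whose total RNA was hybridised to 1 Affymetrix Clariom S array. Per the labels' protocols an RNeasy Micro kit served for extraction, and 2 ng of RNA were amplified with 10 PCR cycles ahead of in vitro transcription. The authors deposited log2 signals, 1 per probe set and array, made in R 3.5.01 with oligo, per the submitters' processing notes. How background was corrected and arrays were normalized is not stated in the sources used here.

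Of 22203 probe sets, 19572 had exactly 1 symbol in the platform annotation and matched RefSeq (GRCm38.p6, for names, promoter windows and microRNAs). The other 2631 were left out. The brightest probe set stood for each gene, which set 67 aside and left 19505 genes. Means of 6 groups of 3 arrays were fitted with limma 3.58.1 in R 4.3.3 (lmFit, eBayes), with Benjamini-Hochberg adjustment over all genes. The median SE of a difference was 0.17 in ST-HSC and 0.21 in the contrast against LT-HSC and MPP, and precision is limited by the number of arrays. The fit was tested on simulated data. The comparison, the 38 gene lists (920 entries measured of 1019) and the rules for named genes were chosen with earlier results of these data known, so counts over lists are descriptions with no test of the list. The background of genes at the same levels was added after the values had been seen. Genes named are the 20 largest differences each way among called genes whose arrays do not overlap, and the 10 largest each way in the contrast. Up to 6 members per list with the largest absolute difference and members that explain a count of 5 or fewer were named too. So were Kit, Slamf1, Cd48, Cd34 and Flt3. Alternatives changed 1 choice at a time. Arrays were left out, or values were median centred, scaled by the array's median, or quantile normalized. The interquartile range was a covariate, or replicate letters were blocks. The dimmest 30% of genes were left out, or probe sets were averaged per gene. Other fits used array weights, a trended and robust eBayes, the 6 ST-HSC arrays alone, or a fold of at least 2.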

Additional observations from a re-analysis of the deposited data

Results flagged for a closer look

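Of the genes tested, 16 had a fetal minus adult difference in ST-HSC that departed, by the contrast test, from the mean of LT-HSC and MPP, and were named for it. The contrasts above 0 were 2.85 for Jchain, 2.37 for Rasgrp3, 2.06 for Igfbp5, 2.06 for Aif1, 2.05 for Fn1, 1.97 for Pld4, 1.94 for Insyn2b, 1.91 for Slamf6, 1.91 for Cdh5 and 1.89 for Il7r. Those below 0 were -1.58 for Thbs1, -1.35 for Muc13, -1.16 for Gm10845, -1.06 for P2ry2, -0.86 for 9230009I02Rik and -0.84 for Tent5b, on the log2 scale. For Gm10845 the ST-HSC values were 5.01, 4.55 and 4.96 in FL, against 5.81, 6.26 and 5.71 in BM. For Tent5b they were 7.15, 6.78 and 7.17 in FL, against 7.71, 7.72 and 7.79 in BM, and for 9230009I02Rik 4.34, 4.24 and 4.36 in FL, against 4.75, 5.14 and 5.09 in BM. None of the 16 passed in the contrast without BM ST-HSC b and c together or without FL ST-HSC b and c together. All 16 passed without BM ST-HSC a, and some but not all did without the 4 arrays of narrow spread. In no alternative in which they were fitted did their sign change. Of the 16, 13 were among the genes left without the dimmest 30%, and the contrast was not fitted on the 6 ST-HSC arrays alone, which hold no LT-HSC or MPP.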

How the results depend on the processing

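No call of a named gene changed direction under the alternatives in which the gene was fitted. With 3638 genes called between FL and BM ST-HSC, 52 in the contrast against LT-HSC and MPP and 433 among the list members, leaving out 1 ST-HSC array in turn gave 1462 to 6125, 10 to 864 and 254 to 494. The highest counts came without BM ST-HSC a (3493 higher and 2632 lower) and the lowest without BM ST-HSC c. Without BM ST-HSC b and c together the counts were 474, 0 and 123, with 1 BM array left. Without FL ST-HSC b and c, whose array names carry a suffix in the labels, they were 684, 0 and 159, with 1763 genes at an unadjusted p under 0.05 in the contrast. Without the 4 arrays of narrow spread the first and the last were 1207 (519 higher, 688 lower) and 205, and with the interquartile range as a covariate 1755 (885 higher, 870 lower) and 271. Leaving out the 4 FL arrays with sgEzh2 in their descriptions gave 1462, 2 and 267. Array weights gave 8827 and 4483 for the comparison and the contrast. A fold of at least 2 left 690 genes and 185 list members. The cause of these shifts was not tested, beyond the fewer arrays in those settings that leave some out.

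Of 257 named results, 140 were on the same side of the threshold without BM ST-HSC b and c and 114 lost their call. For quantile normalization these were 241 and 11, and for the interquartile range as a covariate 191 and 57. Each count stayed within 1.5 times with median centring, scaling by the median, quantile normalization and averaging probe sets per gene. The same held for eBayes with a trend, without the dimmest genes and on the 6 ST-HSC arrays alone. Scaling divided each array by its median, which did not bring the narrow arrays to a common spread with the others. With the replicate letter as a fixed replicate block the counts were 3622, 40 and 421, and with a random replicate block 3647, 54 and 432. Letters of FL and BM share only a name: deviations of same-lettered ST-HSC arrays correlated at -0.13, -0.10 and 0.16 for a, b and c.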
